A study of Homo sapiens with 18 samples.

Results

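The E2F transcription factor family comprises E2F1 to E2F8, and all 8 genes were found by their Entrez gene IDs among the 25343 human genes of each deposited table. E2F1 (1869), E2F2 (1870) and E2F3 (1871) are called activators, E2F4 (1874), E2F5 (1875) and E2F6 (1876) canonical repressors, and E2F7 (144455) and E2F8 (79733) atypical members. E2F1 to E2F6 bind DNA as dimers with a DP protein (TFDP1, TFDP2), and the retinoblastoma family (RB1, RBL1, RBL2) holds E2F1 to E2F5 back until cyclin-dependent kinases phosphorylate it late in G1. The activators then switch on genes for DNA replication, some of the E2F genes themselves included. E2F7 and E2F8 bind DNA without a DP partner, rise as cells pass through S phase, and repress the same target genes.

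RNA was measured in 18 tumour libraries of HCT116, an established human colon cancer cell line, carrying a knockout of PTDSS2 (PTDSS2-KO) and grown as xenografts in mice. The tumours fall into 3 groups of 6 libraries, which received vehicle, DS55980254 at 10 mg/kg or DS55980254 at 30 mg/kg. The dose was given by mouth in 0.5% methylcellulose, and every tumour was taken 24 hours later. The series title concerns an inhibitor of PTDSS1, an enzyme of phosphatidylserine synthesis, in cancers that have lost PTDSS2, and each comparison asks which transcripts differed between dosed and vehicle tumours of this genotype. The vehicle tumours carry the knockout too, so no tumour with intact PTDSS2 was compared, and all libraries come from 1 knocked-out line. Nothing in the labels ties each tumour to its own mouse, and the p-values measure only the spread between these samples, which may be technical in part.

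The promoter windows of E2F7 and E2F1, the 2 members with the smallest p-values at both doses (chosen after their values were seen), are shown first, because both hold short sequences that E2F proteins are known to bind. The windows run from 250 bases before to 50 bases after the annotated start (RefSeq, GRCh38.p14), 5′ to 3′ on the gene's own strand, which is the minus strand for both. They span chr20:33686336-33686635 for E2F1 and chr12:77065520-77065819 for E2F7. Capitals mark each match, on either strand, to the 7-letter E2F core, which is any of the 8-letter forms TTTCCCGC, TTTCGCGC, TTTGCCGC or TTTGGCGC without its first T.
E2F1: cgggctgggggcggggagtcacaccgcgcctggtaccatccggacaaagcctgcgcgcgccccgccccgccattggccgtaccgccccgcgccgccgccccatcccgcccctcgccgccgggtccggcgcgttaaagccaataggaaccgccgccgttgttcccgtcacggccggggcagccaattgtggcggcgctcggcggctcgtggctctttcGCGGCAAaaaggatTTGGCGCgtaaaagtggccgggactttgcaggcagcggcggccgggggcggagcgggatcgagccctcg
E2F7: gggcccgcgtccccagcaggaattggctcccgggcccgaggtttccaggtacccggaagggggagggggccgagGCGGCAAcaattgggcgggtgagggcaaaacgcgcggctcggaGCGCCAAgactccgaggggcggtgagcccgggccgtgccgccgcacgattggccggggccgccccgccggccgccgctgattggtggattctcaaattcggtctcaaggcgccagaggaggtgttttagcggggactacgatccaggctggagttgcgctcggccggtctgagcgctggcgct
In the E2F1 window the matches begin 33 and 19 bases before the start, and in the E2F7 window 176 and 133 bases before it. Both E2F1 matches also fit an 8-letter form, with the further T in front, and neither E2F7 match does. Windows were at hand for 6 of the 8 members. E2F2 had 1 core match, E2F6 had 1 and the first of the E2F3 starts had 2, while E2F4 and the other E2F3 start had 0. Of all 35116 RefSeq promoter windows of this length, 13.0% held the core and 3.31% held the 8-letter form. CCAAT, the box bound by NF-Y at many cell cycle promoters, was matched 3 times in the E2F1 window, 4 times in the E2F7 window and in 34.6% of all windows. A match is a description of the letters only, and binding was not measured.

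The libraries held 3435423 to 8538792 counts on human genes, except 10 mg/kg replicate 2 with 433981. Levels are given as CPM, normalised counts scaled to library size, or as TPM, the authors' values per transcript length. Between 26 and 842 counts lay behind each E2F value in 17 libraries, against 4 to 36 in 10 mg/kg replicate 2. Summed over 326 olfactory receptor genes, which this cell type should not transcribe (families 51 and 52 were left out after their values were seen), that library had 1333 CPM and the other 17 had 34.9 to 384 CPM. The 384 CPM belonged to 10 mg/kg replicate 4, and without these 2 libraries the highest was 248 CPM. The part of 10 mg/kg replicate 2 in the results below was not tested beyond the values given without it. PTDSS2 transcript remained countable in each group, with 4.97 to 12.03 CPM in vehicle tumours, 7.11 to 13.9 CPM after 10 mg/kg and 5.32 to 13.4 CPM after 30 mg/kg, and gene counts do not show whether it carries the edit. Epithelial markers (EPCAM, KRT8, KRT18, KRT19, CDH1, VIL1), which HCT116 cells should carry, summed to 5193 to 6861 CPM in vehicle tumours, 3946 to 7245 CPM after 10 mg/kg and 5508 to 6957 CPM after 30 mg/kg. Of the host lists, fibroblast markers summed to 61.8 to 109 CPM in vehicle tumours, 73.1 to 317 CPM after 10 mg/kg and 69.3 to 92.5 CPM after 30 mg/kg, with LUM at a median of 0 in every group. The epithelial low of 3946 CPM and the fibroblast high of 317 CPM both belonged to 10 mg/kg replicate 2. Without it the 10 mg/kg tumours had 5037 to 7245 CPM for epithelial and 73.1 to 106 CPM for fibroblast markers. Endothelial, leukocyte and erythroid markers reached 122, 68.4 and 17.1 CPM in 10 mg/kg replicate 2. The rest of that group was lower in each, with at most 21.4 CPM for endothelial and 1.74 CPM for erythroid markers. Endothelial, leukocyte and erythroid markers reached at most 19.7, 18.5 and 1.10 CPM after 30 mg/kg and 11.5, 18.7 and 0.941 CPM with vehicle.

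Every E2F gene was transcribed in the vehicle tumours. Per transcript length, E2F4, the repressor that occupies target promoters in resting cells, was highest at 113 ± 4.41 TPM (SD, n = 6). E2F3, an activator made from 2 start sites, followed at 27.8 ± 2.66 TPM (SD, n = 6). Neither range met that of the next gene in the order. E2F7 averaged 19.8 ± 2.16 TPM, E2F1 17.7 ± 1.80 TPM and E2F6 14.6 ± 1.76 TPM in vehicle tumours (SD, n = 6 each). E2F5 averaged 13.3 ± 3.40 TPM, E2F8 12.5 ± 2.41 TPM and E2F2 9.70 ± 1.87 TPM there (SD, n = 6 each). From E2F7 down to E2F2, the ranges of each pair of neighbours overlapped, so their order lies within the spread between tumours.

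**Figure D1:**
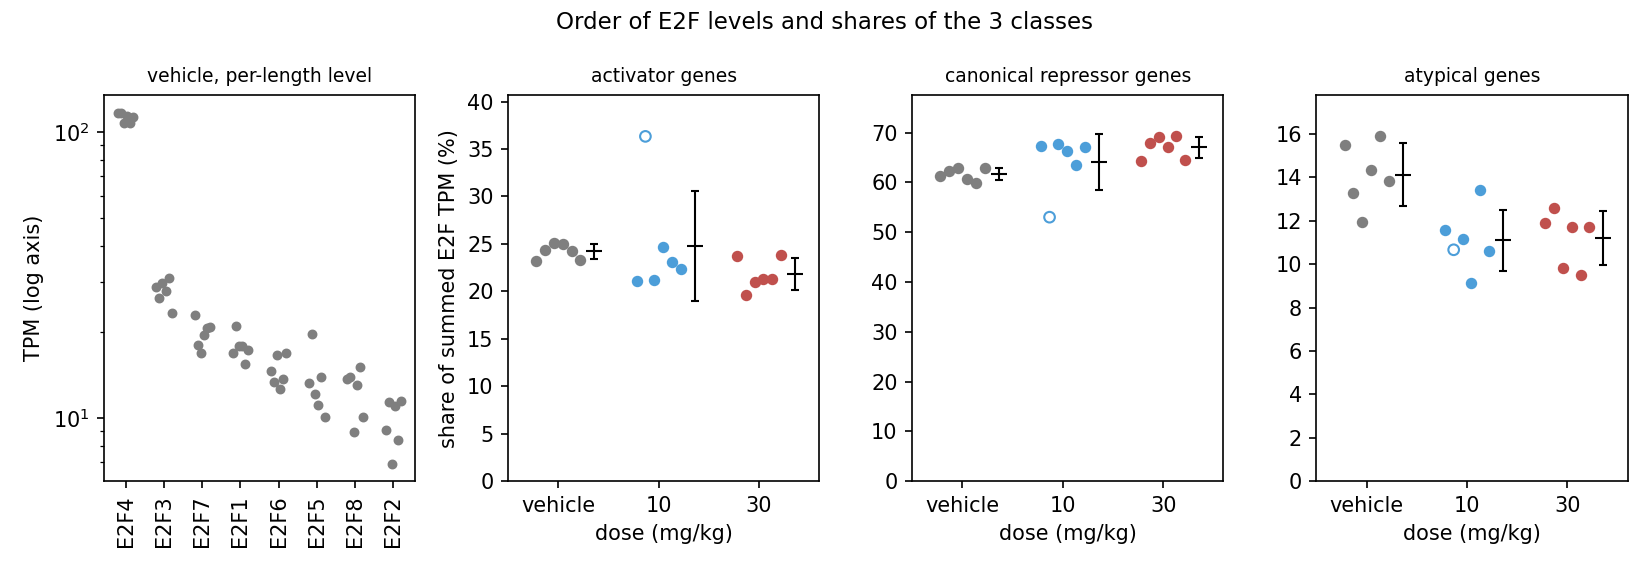
Left, TPM of each E2F gene in the 6 vehicle tumours, on a log axis and ordered by mean; the other panels give each library's share (%) of summed E2F TPM held by the activator, canonical repressor and atypical genes, with mean ± SD and 10 mg/kg replicate 2 as an open circle. E2F4 stands apart at 107 to 117 TPM, and the atypical share averaged 14.1% in vehicle tumours, 11.1% after 10 mg/kg and 11.2% after 30 mg/kg.

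At 10 mg/kg, E2F7 fell, and it was the 1 family member past the threshold. E2F7 is an atypical E2F that represses replication genes and E2F1 itself. Its level at 10 mg/kg was 40.8 ± 4.52 CPM, against 56.9 ± 5.12 CPM with vehicle (SD, n = 6 each). The ratio to vehicle from the fitted model was 0.710. No other E2F gene passed at this dose, and none passed at 30 mg/kg, where the fitted ratio of E2F7 to vehicle was 0.744.

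In the 6 vehicle tumours E2F7 stood at 63.9, 51.5, 51.3, 55.7, 58.1 and 61.1 CPM. The 10 mg/kg tumours had 40.1, 44.9, 38.4, 33.3, 43.3 and 44.8 CPM. The 30 mg/kg tumours had 43.6, 44.4, 33.5, 42.9, 41.1 and 48.3 CPM. Every dosed tumour lay below every vehicle tumour, and the 2 dosed groups overlapped almost throughout. All 12 dosed libraries lay below all 6 vehicle libraries in 16 of the 14074 genes tested, which is 0.114%. Taking each dose alone, 0.469% of genes had all 10 mg/kg libraries below all vehicle libraries, and 0.476% had all 30 mg/kg libraries below them. In a tumour sample, fewer cells in the phase that makes E2F7 and less E2F7 RNA per cell cannot be told apart.

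Against vehicle, the log2 fold change of E2F7 was -0.49 at 10 mg/kg (95% interval -0.72 to -0.27), with an adjusted p of 0.0363 by edgeR's quasi-likelihood test with Benjamini-Hochberg adjustment over all 14074 genes. At this dose 1 of 8 members was called, where 0.469% of all genes were called (66 genes) and 0.0497% were called lower (7 genes). At 30 mg/kg the log2 fold change was -0.43 (95% interval -0.65 to -0.21) with an adjusted p of 0.0666 in the same test. Thus 0 of 8 members were called at 30 mg/kg, where 0.618% of all genes were called (87 genes). By DESeq2, E2F7 passed there too (adjusted p = 0.0110), where 1.27% of all genes passed. An unadjusted p under 0.05 was held by 3 members at 10 mg/kg and 4 at 30 mg/kg, against 9.5% and 7.9% of all genes. Both doses were set against the same 6 vehicle libraries, so the results at the 2 doses are not independent.

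The call of E2F7 at 10 mg/kg rested on a margin that single libraries could remove. Its log2 fold change stayed between -0.52 and -0.43 whichever of the 18 libraries was left out, but the adjusted p ran from 0.0158 to 0.132 and passed in 7 of the 18 fits. It ended without vehicle replicate 1, 2, 4, 5 or 6, without 10 mg/kg replicate 1, 3 or 4, and without 30 mg/kg replicate 1, 2 or 4. Without 10 mg/kg replicate 2 the log2 fold change was -0.50 (adjusted p = 0.0158), and at 30 mg/kg the adjusted p became 0.0316, the 1 omission that made the call there. In that library E2F7 rested on 21 counts, and its 44.9 CPM carried a 95% counting interval of 27.8 to 68.7 CPM. It was the highest of its group in CPM yet the lowest in TPM, at 9.99.

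**Figure D2:**
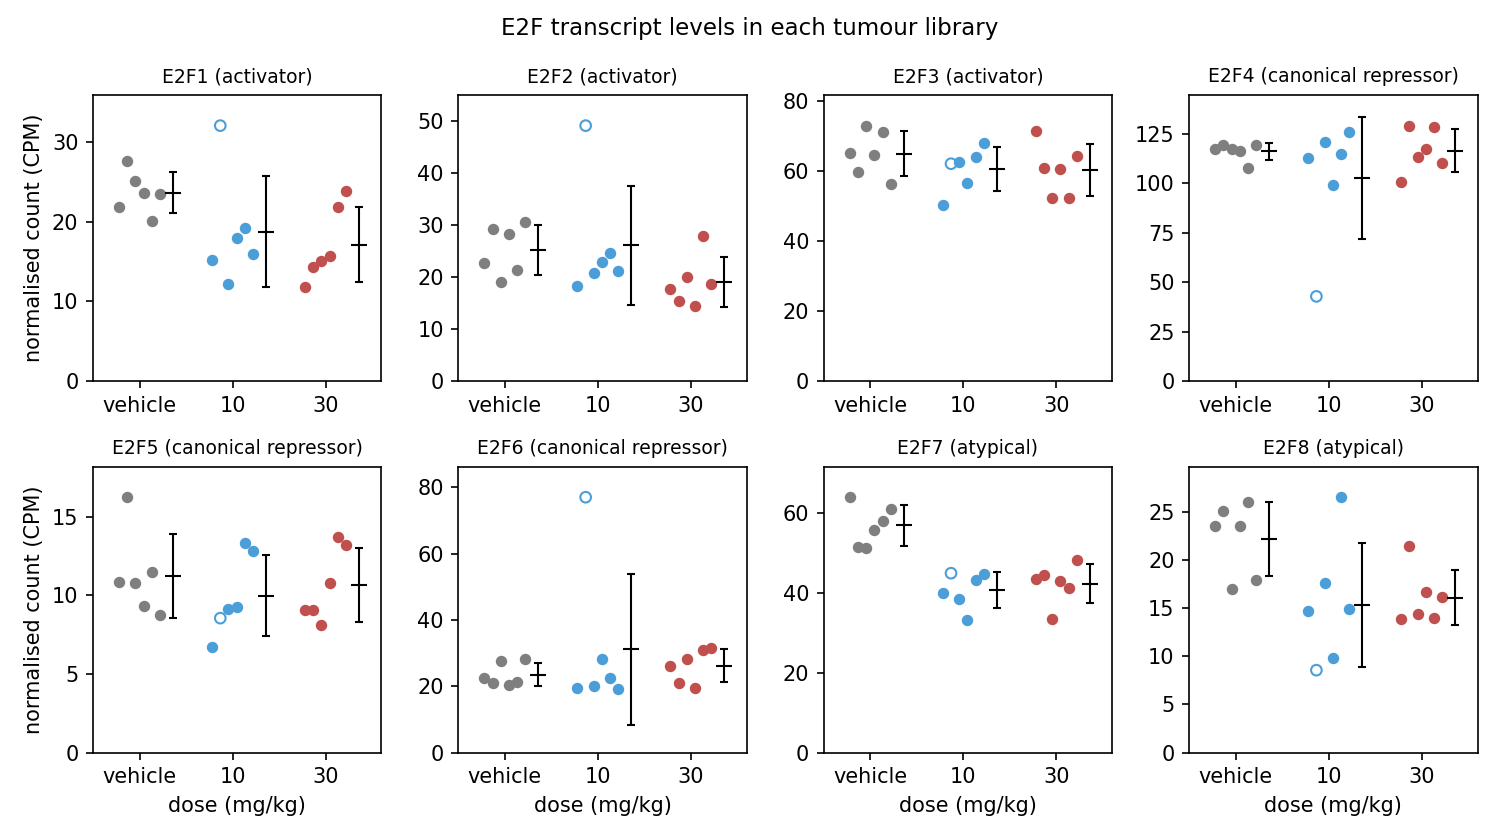
Normalised count (CPM) of each E2F gene in every library by dose (vehicle, 10 and 30 mg/kg), with mean ± SD beside each group of 6; the open circle is 10 mg/kg replicate 2. For E2F7 the dosed tumours reach at most 48.3 CPM and the vehicle tumours start at 51.3 CPM, whereas the groups overlap for the other 7 genes.

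The other atypical member, E2F8, which acts together with E2F7 on the same promoters, was also lower on average without passing. E2F8 ran from 8.56 to 26.5 CPM at 10 mg/kg (median 14.8) and from 13.9 to 21.4 CPM at 30 mg/kg (median 15.3), against 16.9 to 25.99 CPM with vehicle (median 23.5). The dosed medians lay below the lowest vehicle tumour, but single dosed tumours reached into the vehicle range. Its log2 fold change was -0.44 at 10 mg/kg (95% interval -0.84 to -0.03, adjusted p = 0.480) and -0.47 at 30 mg/kg (-0.86 to -0.08, adjusted p = 0.485). Without 10 mg/kg replicate 5, the library with the highest E2F8 level of its group, the first became -0.66 (adjusted p = 0.113). Together the atypical genes held 11.1 ± 1.40% of summed E2F TPM at 10 mg/kg and 11.2 ± 1.24% at 30 mg/kg, against 14.1 ± 1.45% with vehicle (SD, n = 6 each).

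Among the activators, E2F1, which drives entry into S phase and can also induce apoptosis genes, was lower on average at both doses without passing. E2F1 ran from 12.1 to 32.1 CPM at 10 mg/kg (median 16.97) and from 11.8 to 23.9 CPM at 30 mg/kg (median 15.4), against 20.1 to 27.6 CPM with vehicle (median 23.5). Of the 10 mg/kg tumours 5 of 6, and of the 30 mg/kg tumours 4 of 6, lay below the lowest vehicle tumour, and the highest E2F1 value of the study was 10 mg/kg replicate 2. Without that library the 10 mg/kg range was 12.1 to 19.2 CPM, which does not meet the vehicle range. In these 17 libraries 0.725% of all genes had the 10 mg/kg tumours wholly below the vehicle tumours. In TPM the 10 mg/kg tumours reached 15.39 and the vehicle tumours started at 15.42, a gap far smaller than the spread within either group. The log2 fold change was -0.48 at 10 mg/kg (95% interval -0.86 to -0.09, adjusted p = 0.391) and -0.48 at 30 mg/kg (-0.84 to -0.11, adjusted p = 0.405).

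E2F2, an activator with overlapping targets, averaged 26.2 ± 11.5 CPM in 10 mg/kg tumours and 19.0 ± 4.84 CPM in 30 mg/kg tumours, against 25.2 ± 4.77 CPM with vehicle (SD, n = 6 each). The wide spread at 10 mg/kg comes from replicate 2 at 49.2 CPM, and the remaining 5 tumours averaged 21.5 ± 2.33 CPM (SD, n = 5). Its log2 fold change was -0.11 at 10 mg/kg (adjusted p = 0.884, and -0.23 to -0.035 with single libraries left out) and -0.41 at 30 mg/kg (95% interval -0.79 to -0.03, adjusted p = 0.563). E2F3 averaged 60.5 ± 6.31 CPM in 10 mg/kg tumours and 60.2 ± 7.33 CPM in 30 mg/kg tumours, against 64.9 ± 6.39 CPM with vehicle (SD, n = 6 each). Its log2 fold change of -0.10 at each dose had 95% intervals of -0.32 to 0.12 and -0.32 to 0.11. E2F1 and E2F2 thus had the larger estimates of the activators at 30 mg/kg, and the intervals of all 3 genes overlapped.

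No canonical repressor was called at either dose by edgeR, DESeq2 or limma. E2F4 averaged 103 ± 30.7 CPM in 10 mg/kg tumours and 117 ± 10.96 CPM in 30 mg/kg tumours, against 116 ± 4.27 CPM with vehicle (SD, n = 6 each). Without replicate 2, at 42.8 CPM, the 10 mg/kg mean was 115 ± 10.2 CPM (SD, n = 5). The log2 fold change of E2F4 was -0.11 at 10 mg/kg (95% interval -0.39 to 0.16) and 0.0022 at 30 mg/kg (-0.27 to 0.27), and the second estimate changed sign with the scaling by library totals. E2F5, the partner of the pocket proteins in resting cells, averaged 9.97 ± 2.58 CPM in 10 mg/kg tumours and 10.7 ± 2.33 CPM in 30 mg/kg tumours, against 11.3 ± 2.66 CPM with vehicle (SD, n = 6 each). It had the lowest counts of the family, and its log2 fold changes had 95% intervals of -0.57 to 0.28 and -0.50 to 0.33, which include changes of either sign. E2F6, which represses through Polycomb proteins and does not bind the pocket proteins, averaged 31.1 ± 22.7 CPM in 10 mg/kg tumours and 26.2 ± 5.05 CPM in 30 mg/kg tumours, against 23.5 ± 3.43 CPM with vehicle (SD, n = 6 each). Replicate 2 stood at 77.0 CPM, and without it the 10 mg/kg mean of E2F6 was 21.95 ± 3.84 CPM (SD, n = 5). Its log2 fold change was 0.12 at 10 mg/kg and 0.16 at 30 mg/kg (adjusted p = 0.901 and 0.957), and the first turned negative without that library (-0.0999). E2F3 and E2F6 have processed pseudogenes, and how reads shared with those were assigned is not given in the sources used here.

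**Figure D3:**
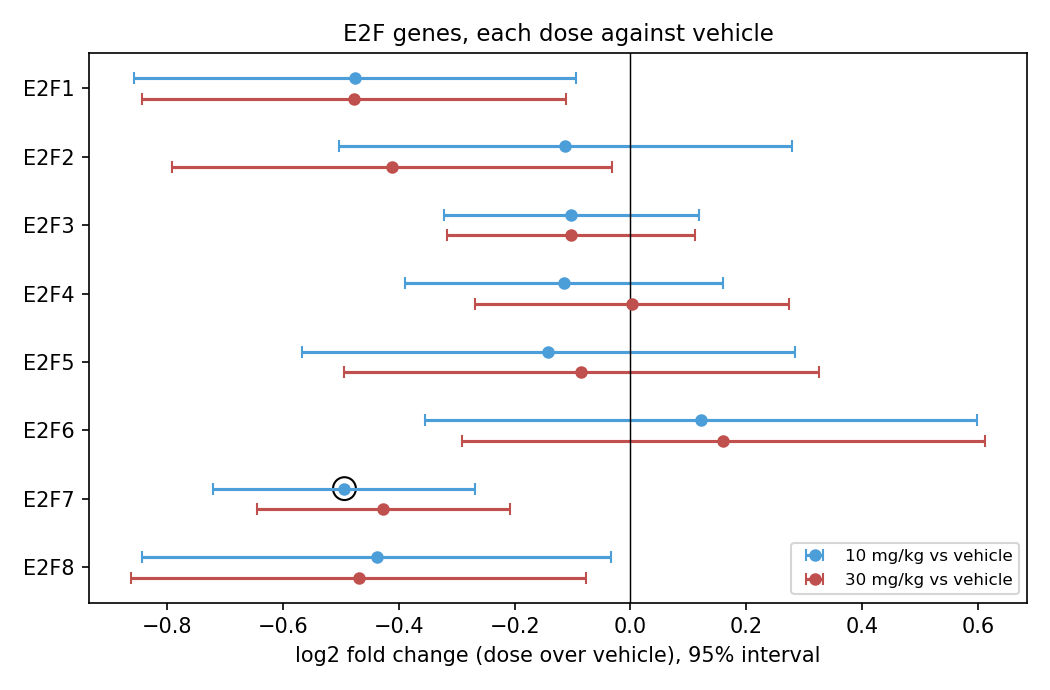
Log2 fold change of each E2F gene at 10 mg/kg (blue) and 30 mg/kg (red) over vehicle, from the edgeR fit, with 95% intervals; the ring marks an adjusted p under 0.05. E2F1, E2F7 and E2F8 have both intervals below 0, and E2F3 to E2F6 have intervals that include 0.

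Across the family, 7 of 8 log2 fold changes were below 0 at 10 mg/kg (median -0.13) and 6 of 8 at 30 mg/kg (median -0.26). Over all genes tested 51.2% and 50.2% were below 0, and the medians were -0.0064 and -0.0011. The 2 doses were also set against each other. In that comparison 0 of 8 members and 0% of all genes were called by edgeR, 0 members and 3.52% of genes had an unadjusted p under 0.05, and DESeq2 and limma called 0 genes as well. For E2F7 the log2 fold change of 30 over 10 mg/kg was 0.07 (95% interval -0.16 to 0.30), and for E2F1 it was -0.0017 (-0.40 to 0.40). The estimate largest in size was that of E2F2, -0.30 (-0.70 to 0.10, adjusted p = 0.969), which became -0.18 without 10 mg/kg replicate 2. In a test for any difference among the 3 groups, E2F7 was the 1 member called (adjusted p = 0.0346), where 0.568% of genes were called. With a straight line over the steps vehicle, 10 and 30 mg/kg, 0 of 8 members and 0.49% of genes were called, and E2F7 had a slope of -0.22 log2 units per step (adjusted p = 0.148).

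Because the classes differ in level, their shares of the summed E2F TPM were also compared. The sum was 194 ± 40.5 TPM at 10 mg/kg and 209 ± 9.88 TPM at 30 mg/kg, against 228 ± 8.90 TPM with vehicle (SD, n = 6 each), and 10 mg/kg replicate 2 was lowest at 123 TPM. Canonical repressors held 64.1 ± 5.65% at 10 mg/kg and 67.0 ± 2.19% at 30 mg/kg, against 61.7 ± 1.26% with vehicle (SD, n = 6 each). Their shares of 64.3 to 69.2% at 30 mg/kg lay above the vehicle range of 59.9 to 63.0%. In 10 mg/kg tumours other than replicate 2 the shares were 63.5 to 67.6%, also above the vehicle range. In summed level the class stood at 139.7 ± 7.01 TPM in 30 mg/kg tumours, against 140.6 ± 5.80 TPM with vehicle, while the activators stood at 45.4 ± 3.94 TPM against 55.2 ± 2.20 TPM (SD, n = 6 each). Activators held 24.8 ± 5.80% at 10 mg/kg and 21.8 ± 1.69% at 30 mg/kg, against 24.2 ± 0.802% with vehicle (SD, n = 6 each). In 10 mg/kg replicate 2 the activator share was 36.3%, and it was 21.1 to 24.6% in the rest of its group. No test was made on these shares, which are not independent of each other.

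The files give a mean transcript length for each gene, which moves when the mix of isoforms does. For E2F3, whose 2 transcripts differ in their first exon, it was 4555 to 4674 bases at 10 mg/kg and 4530 to 4734 bases at 30 mg/kg, against 4586 to 4721 bases with vehicle. For E2F6 it was 3120 to 3279 bases at 10 mg/kg and 3189 to 3345 bases at 30 mg/kg, against 3165 to 3304 bases with vehicle. The groups overlapped for both genes, and for E2F8. For E2F5, with 3 transcripts, the mean length was 1731 bases in every dosed tumour, within the 1712 to 1734 bases of the vehicle tumours. E2F1, E2F2, E2F4 and E2F7 have 1 transcript each in the tables.

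Of the tested genes for direct partners of the E2F proteins, edgeR called 0 at either dose and DESeq2 called 1, RBL1 at 10 mg/kg. Of the DP partners, TFDP1 stood at 110 ± 32.2 CPM in 10 mg/kg tumours and 125 ± 16.4 CPM in 30 mg/kg tumours, against 137 ± 9.004 CPM with vehicle (SD, n = 6 each). TFDP2 stood at 83.8 ± 19.1 CPM in 10 mg/kg tumours and 72.9 ± 12.2 CPM in 30 mg/kg tumours, against 88.9 ± 9.93 CPM with vehicle (SD, n = 6 each). TFDP3 had too few counts to be tested. All 3 pocket protein genes had log2 fold changes below 0 at both doses (medians -0.27 and -0.21), as had 51.2% and 50.2% of all genes. EdgeR called 0 of the 3. At 10 mg/kg 1 of the 3 had an unadjusted p under 0.05, against 9.5% of all genes. RBL1, which encodes p107 and is itself an E2F target, came nearest, at 30.2 ± 4.27 CPM at 10 mg/kg against 41.3 ± 5.25 CPM with vehicle (SD, n = 6 each; log2 fold change -0.47, adjusted p = 0.105 by edgeR). It passed there by DESeq2 (adjusted p = 0.0320) and by voom with sample weights (adjusted p = 0.0157). RB1 had a log2 fold change of -0.27 at 10 mg/kg (-0.15 without replicate 2) and -0.14 at 30 mg/kg, and RBL2, which encodes p130, had -0.16 and -0.26.

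Of 4 genes that act in the degradation of E2F proteins, 0 were called by edgeR or DESeq2. At 10 mg/kg 2 of them had an unadjusted p under 0.05, against 9.5% of all genes. SKP2, a substrate receptor of the SCF ubiquitin ligase that recognises E2F1, stood at 22.01 ± 2.53 CPM in 10 mg/kg tumours and 26.6 ± 5.54 CPM in 30 mg/kg tumours, against 31.4 ± 4.00 CPM with vehicle (SD, n = 6 each). Its 10 mg/kg tumours, 17.7 to 25.2 CPM, did not overlap the vehicle tumours, 26.7 to 36.3 CPM (log2 fold change -0.50, adjusted p = 0.187). Of all genes, 0.469% had all 10 mg/kg libraries below all vehicle libraries. CCNF, the cyclin F that marks activator E2Fs for destruction, had log2 fold changes of -0.25 and -0.20 at 10 and 30 mg/kg. FZR1, an activator of the anaphase-promoting complex that targets E2F7 and E2F8, had 0.14 and 0.13, and BTRC, another ubiquitin ligase receptor, had 0.13 and 0.02.

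Upstream of the E2F proteins, 0 of 14 tested genes for G1 cyclins, kinases and inhibitors were called by edgeR or DESeq2. Their medians were 0.08 and 0.07 on the log2 scale at 10 and 30 mg/kg, with 5 and 6 of the 14 below 0. The list mixes cyclins and kinases with their inhibitors, so its median describes neither kind alone. CCNE2, a cyclin E gene that E2F proteins induce, stood at 10.3 ± 1.79 CPM at 30 mg/kg against 15.9 ± 3.47 CPM with vehicle (SD, n = 6 each; log2 fold change -0.60, adjusted p = 0.505). CDKN1A, which encodes the kinase inhibitor p21, had log2 fold changes of 0.34 and 0.29 at 10 and 30 mg/kg (adjusted p = 0.576 and 0.800). In the MuvB complex, which joins E2F4 or E2F5 with p130 in resting cells and MYBL2 or FOXM1 later, edgeR called 0 of 7 genes (medians -0.14 and -0.16) and DESeq2 called 1, RBBP4 at 10 mg/kg. Its members RBBP4, a histone-binding protein, had -0.33 and -0.25 (adjusted p = 0.228 and 0.480 by edgeR, and 0.0279 at 10 mg/kg by DESeq2) and LIN52 had -0.14 and -0.39. Of 10 genes of the Polycomb complex around E2F6, 0 were called by edgeR or DESeq2 (medians -0.05 and 0.02). The named ones were RING1, a ubiquitin ligase, at 0.44 and 0.22, and CBX3, a heterochromatin protein, at -0.27 and -0.12. Without 10 mg/kg replicate 2 the estimates at 10 mg/kg were 0.20 for CDKN1A, 0.28 for RING1 and -0.16 for CBX3. Of 3 germline genes that E2F6 is known to silence in mouse cells, STAG3 alone passed the filter, at 3.87 ± 1.05 CPM in 10 mg/kg tumours and 2.68 ± 1.118 CPM in 30 mg/kg tumours, against 3.75 ± 0.745 CPM with vehicle (SD, n = 6 each).

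Nearly all target genes of E2F proteins in S phase had estimates below 0, and none passed the threshold over all genes by edgeR with all libraries. The lower dose had 35 of 35 with a log2 fold change below 0 (median -0.35), and edgeR called 0. At 30 mg/kg it was 33 of 35 (median -0.27), again with 0 called by edgeR. Of all genes tested, 51.2% were below 0 at 10 mg/kg and 50.2% at 30 mg/kg. DESeq2 called 1 of the 35 at 10 mg/kg (HELLS) and 2 at 30 mg/kg (HELLS and CDT1, a replication licensing factor), and voom with sample weights called 5 and 7. An unadjusted p under 0.05 was held by 23 of the 35 at 10 mg/kg and 17 at 30 mg/kg, where 9.5% and 7.9% of all genes had one. Genes of one list share regulators and tumours, so these counts are not independent observations. The list was also chosen with earlier results of these data known, so its counts are a description and not a test. HELLS, a chromatin remodeller, stood at 122 ± 29.9 CPM in 10 mg/kg tumours and 134 ± 23.8 CPM in 30 mg/kg tumours, against 189 ± 26.9 CPM with vehicle (SD, n = 6 each; log2 fold changes -0.60 and -0.49, adjusted p = 0.0681 and 0.164 by edgeR). By DESeq2 its adjusted p was 0.00708 and 0.0473. FEN1, the flap endonuclease of Okazaki fragments, had log2 fold changes of -0.34 and -0.37 at 10 and 30 mg/kg (adjusted p = 0.269 and 0.159). Without 10 mg/kg replicate 2 the medians were -0.33 and -0.27, and HELLS was called lower at each dose (adjusted p = 0.0346 and 0.0316). In that fit 0.855% of all genes were called at 10 mg/kg and 1.29% at 30 mg/kg.

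Target genes of mitosis had a median further below 0 at the lower dose. At 10 mg/kg 12 of 12 were below 0 (median -0.28), and at 30 mg/kg 11 of 12 were (median -0.09), with 0 called by edgeR at either. Of all genes tested, 51.2% and 50.2% were below 0. This list too was chosen with earlier results of these data known. By DESeq2 and by limma-voom 1 of the 12 was called at 10 mg/kg, MAD2L1 (adjusted p = 0.0135 and 0.0422), and 0 at 30 mg/kg. An unadjusted p under 0.05 was held by 6 of the 12 at 10 mg/kg and 1 at 30 mg/kg, against 9.5% and 7.9% of all genes. Between the doses, 0 of the 12 were below 0 (median 0.22), against 49.1% of all genes, and 0 were called by edgeR or DESeq2. In that comparison 3 of the 12 had an unadjusted p under 0.05, against 3.52% of all genes. MAD2L1, a spindle checkpoint protein, stood at 28.2 ± 8.40 CPM in 10 mg/kg tumours and 35.5 ± 2.26 CPM in 30 mg/kg tumours, against 44.2 ± 4.74 CPM with vehicle (SD, n = 6 each; log2 fold changes -0.60 and -0.32, adjusted p = 0.0656 and 0.539 by edgeR). BIRC5, which encodes survivin, had log2 fold changes of -0.35 and -0.10 at 10 and 30 mg/kg. Without 10 mg/kg replicate 2 the median at 10 mg/kg was -0.22, and MAD2L1 was called lower there (adjusted p = 0.0429), where 0.855% of all genes were called. Between the doses the median without that library was 0.17, with 0 of the 12 below 0.

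Target genes of apoptosis went the other way in sign (medians 0.14 and 0.18 over 7 genes), and PMAIP1, which encodes the BCL2-binding protein NOXA, was the 1 gene of the list called. PMAIP1 rose to 138 ± 26.5 CPM at 30 mg/kg, against 86.8 ± 6.78 CPM with vehicle (SD, n = 6 each), a log2 fold change of 0.67 (adjusted p = 0.00307). The 30 mg/kg tumours, 112 to 165 CPM, all lay above the vehicle tumours, 81.1 to 99.7 CPM, as in 1.25% of all genes, and 0.568% of all genes were called higher. The 10 mg/kg tumours had 120 ± 16.3 CPM (SD, n = 6; log2 fold change 0.49, adjusted p = 0.0832 by edgeR), and it passed there without replicate 2 (adjusted p = 0.0230) and by DESeq2 (adjusted p = 0.0104). On log2(TPM + 1) by limma-trend the call at 30 mg/kg ended (adjusted p = 0.274). PMAIP1 is also a known target of p53 and of ATF4.

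**Figure D4:**
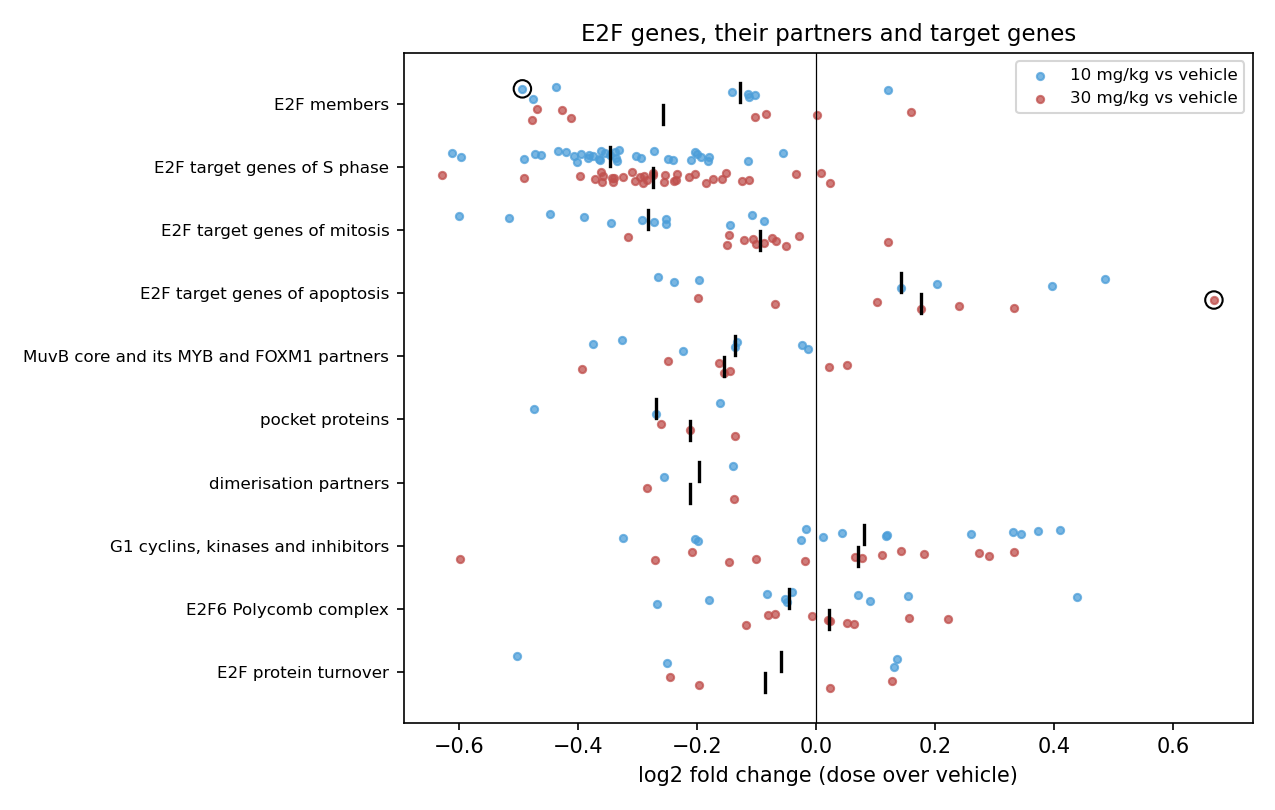
Log2 fold change over vehicle of each tested gene in the E2F family and in lists of its partners, regulators and targets, at 10 mg/kg (blue) and 30 mg/kg (red); the black tick is the list's median and a ring marks an adjusted p under 0.05 by edgeR. The S-phase targets lie almost wholly below 0 at both doses (medians -0.35 and -0.27), and the rings mark E2F7 at 10 mg/kg and PMAIP1 at 30 mg/kg. The lists were chosen with earlier results of these data known.

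The genes whose levels followed the members most closely were found by Pearson correlation of log2 CPM over the 17 libraries other than 10 mg/kg replicate 2. For E2F1 they were CDC6, the origin licensing ATPase, at 0.90, UNG, the uracil glycosylase of DNA repair, at 0.85, and NMRAL1 at 0.85. For E2F7 they were ATAD2, a chromatin ATPase, at 0.86, RNASEH2C, a subunit of RNase H2, at 0.83, and CIBAR1 at 0.83. For E2F8 they were BRIP1, a helicase of DNA repair, at 0.87, TRIM27 at 0.86 and SLC25A27 at 0.86. These libraries share the dose groups and differ in depth, so the values describe the libraries only. With all 18 libraries CDC6 stayed at 0.92 with E2F1, and ATAD2 stood at 0.43 with E2F7.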

How the data were processed

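Each library has a table of human genes, keyed by Entrez gene ID and laid out as RSEM writes it. Expected counts (reads estimated for a gene, unscaled), TPM and FPKM (both scaled for transcript length) were computed by the authors, per the file headers. FPKM were not used. The deposited tables also give a mean transcript length per gene (other unit, bases). The submitters' processing notes name STAR 2.4.2a, hg19 and mm10 without their roles. Not given in the sources used here are the quantifier, the annotation, the use of strand and the way that human and mouse reads were told apart. Whether reads of a gene were kept apart from those of an overlapping antisense gene is therefore not known. Libraries were made from 5 ng of total RNA, per the labels' protocols, with a stranded kit.

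Gene IDs gave symbols for 25220 genes, transcript accessions for 26 more, and 97 stayed without one. Expected counts were rounded to whole numbers, filtered with filterByExpr (14074 genes left), scaled by TMM and fitted over all 18 libraries in edgeR 4.0.16 (R 4.3.3) by its quasi-likelihood method with robust settings, with Benjamini-Hochberg adjustment and a threshold of 0.05. The contrasts set 10 and 30 mg/kg against vehicle and 30 against 10 mg/kg, and further tests took any difference among groups and a straight line over the steps 0, 1 and 2, fitted as its own model because a linear contrast of 3 group means would equal 30 mg/kg against vehicle. Depth limits precision to the counting intervals given, which cover counting error only. Sequences are from RefSeq (GRCh38.p14), and 6 of 8 members had a promoter window.

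Alternatives were DESeq2 1.42.0 and its size factors, library totals, other filters, limma 3.58.1 (voom, sample weights, and trend on log2(TPM + 1) and log2(TPM + 0.1)), the groups compared alone, the replicate number as a block, and each library left out. Leaving out 10 mg/kg replicates 2 and 4 together was added after the data were seen. The fit was tested on simulated data. The members and lists were chosen with earlier results of these data known. All members were to be named, with every tested partner, pocket protein and turnover gene, and from each other list the called genes or else the 2 with the smallest p. No library pair within a group agreed within sampling noise (45 pairs, chi-square per degree of freedom 2.45 to 20.0).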

Additional observations from a re-analysis of the deposited data

Results flagged for a closer look

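In 9 of the 48 sets of 6 values tested (8 genes, 3 groups, CPM and TPM), the highest or lowest library stood apart from the rest of its group by Dixon's test at its 95% critical value, where chance gives about 1 in 20. Of these 9, 6 belong to 10 mg/kg replicate 2. In CPM that library had E2F1 at 32.1 (others of its group 12.1 to 19.2), E2F2 at 49.2 (18.4 to 24.6) and E2F6 at 77.0 (19.2 to 28.4), and E2F4 at 42.8 (99.0 to 126). In TPM it had E2F4 at 26.6 (others 94.6 to 126) and E2F6 at 31.9 (11.6 to 17.7). The remaining 3 were in other libraries. E2F4 was lowest in vehicle replicate 5 at 107.9 CPM (others 116 to 119). E2F5 was highest in vehicle replicate 2 at 16.3 CPM (others 8.73 to 11.5). E2F8 was highest in 30 mg/kg replicate 2 at 21.4 CPM (others 13.9 to 16.7).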

How the results depend on the processing

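The fold change of E2F7 kept its sign in every alternative, from -0.58 to -0.45 at 10 mg/kg (called in 6 of 12) and from -0.46 to -0.42 at 30 mg/kg (called in 4 of 12). At 10 mg/kg the count of members called was 0 with no filter, on log2(TPM + 1), on log2(TPM + 0.1), with only the groups compared, with the replicate block and without 10 mg/kg replicates 2 and 4, and 2 with voom sample weights (E2F1 and E2F7). At 30 mg/kg it was 3 with voom sample weights (E2F1, E2F2 and E2F7) and 1 with DESeq2, with only the groups compared and without those 2 replicates. For any group it was 0 with no filter, on both TPM scales and with the replicate block, and 2 with voom sample weights. For the straight line it was 3 with voom sample weights and 1 with DESeq2 and without those 2 replicates. With 1 library left out the counts ran from 0 to 1 for each dose against vehicle and for any group, and were 0 for the line and between the doses. The cause of these shifts was not tested.

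Over all genes, 66 calls at 10 mg/kg became 24 with the replicate block, 32 with no filter, 36 with only the groups compared, 12 and 11 on the TPM scales, 158 with DESeq2, 235 with voom sample weights, 121 without 10 mg/kg replicate 2, and 42, 40, 45 and 31 without vehicle replicates 1, 2, 6 and 5. The 87 calls at 30 mg/kg became 60 with the block, 57 with no filter, 189 with only the groups compared, 23 and 26 on the TPM scales, 179 with DESeq2, 315 with voom sample weights, and 182 without 10 mg/kg replicate 2. Without 10 mg/kg replicates 2 and 4 they were 83 and 188.

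No sign that replicate numbers pair the samples was seen. Same-numbered libraries of different groups had a mean correlation of deviations of -0.040 over 18 pairs (3 over 0.1). Differently numbered ones had 0.0099 over 90 pairs (27 over 0.1), and 1 of 18 libraries correlated best with its own number. Other factors that samples may share, which the labels do not give, were not tested. With the replicate block E2F7 had a log2 fold change of -0.49 at 10 mg/kg (adjusted p = 0.0819), and E2F3 between the doses was 0.0024.

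Estimates near 0, none of them called, changed sign. Against vehicle at 30 mg/kg, E2F4 was -0.026 with library totals, -0.012 with no filter, -0.00092 with voom, -0.0097 with sample weights, and -0.020 and -0.020 on the TPM scales, and BTRC was -0.0055 with library totals. Along the line E2F4 was -0.013, -0.0060, -0.00051, -0.0051, -0.0098 and -0.0099 under the same settings. At 10 mg/kg E2F6 was -0.046 with voom, -0.13 with sample weights and -0.20 without replicates 2 and 4, where E2F4 was 0.030. STAG3 at 10 mg/kg was -0.024 with no filter, -0.011 with voom, -0.035 with sample weights, and -0.045 and -0.082 on the TPM scales, on which BTRC was -0.026 and -0.032. Between the doses E2F6 was -0.0082 with library totals and -0.081 with DESeq2, E2F1 was 0.036 with no filter, 0.013 with sample weights and 0.12 without replicates 2 and 4, E2F3 was 0.046 with no filter and 0.058 and 0.061 on the TPM scales, E2F8 was 0.018 with sample weights and 0.18 and 0.22 on the TPM scales, E2F5 was -0.051 with sample weights and E2F4 was -0.028 without replicates 2 and 4.

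With 1 library left out, these ranges also crossed 0: at 30 mg/kg BTRC -0.022 to 0.068, E2F4 -0.024 to 0.047 and E2F5 -0.16 to 0.056, at 10 mg/kg E2F5 -0.25 to 0.0050, E2F6 -0.10 to 0.23 and STAG3 -0.066 to 0.20. Between the doses they were E2F1 -0.13 to 0.089, E2F3 -0.065 to 0.031, E2F5 -0.053 to 0.16, E2F6 -0.066 to 0.26 and E2F8 -0.15 to 0.19. Along the line they were E2F4 -0.015 to 0.019 and E2F5 -0.083 to 0.029.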
